A study of Mus musculus with 52 samples.

Results

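Trp53, Trp63, Trp73, Mdm2 and Mdm4 make up the p53 family and its closest pair of regulators, and their RNA was followed across primary mouse osteosarcomas of 3 genotypes. The genes were chosen by name. Of these 5 genes, 4 had a row in the table of 20730 genes, and Trp73 was not analysed here. p53 is a transcription factor that halts or kills cells after DNA damage and other stress, and its loss or mutation is a hallmark of osteosarcoma, a tumour of bone-forming cells. p63 and p73 are its relatives: p63 is best known for building stratified epithelia, and p73 for multiciliated cells and parts of the nervous system. Mdm2 is the ubiquitin ligase that marks p53 for degradation and is itself switched on by p53, while Mdm4 (also called MdmX) binds p53, masks its activation domain and partners with Mdm2.

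Bulk RNA from flash-frozen tumours was sequenced as stranded mRNA libraries. The p53R245W/fl group (17 libraries) carried 1 allele of Trp53 with the R245W missense change and 1 floxed allele, the p53R172H/fl group (19 libraries) carried 1 allele with R172H and 1 floxed allele, and the p53fl/fl group (16 libraries) carried 2 floxed alleles. A floxed allele is one that Cre recombinase can disable. The labels used here do not name the Cre driver, the exons between the loxP sites, or the animals' age. Total counts ranged from 21596798 to 67223388 per library, with a median of 51026968.5. Runx2, the master regulator of bone-forming cells, was at 5.50 CPM (counts scaled to a common library size with TMM factors) or more in all 52 libraries, and Col1a1, the main bone collagen, was at 1043 CPM or more.

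The column names point to 3 library sets, A, B and C, that are unevenly divided among the genotypes: set A held 0 p53R245W/fl, 8 p53R172H/fl and 8 p53fl/fl libraries, set B held 6 of each, and set C held 11, 5 and 2 in the same order. Each set B library (18 in all) had a single close match of the same genotype outside set B. Over 10069 genes, once the means of set and genotype were taken out, matched libraries correlated at 0.647 to 0.943 (Spearman), and the next-best library at 0.362 or less. The labels do not say that matched libraries share a tumour. Fold changes of Trp53, Trp63, Mdm2 and Mdm4 are therefore given over the 52 libraries and again over 34 units, in which the counts of matched libraries were summed (11 p53R245W/fl, 13 p53R172H/fl and 10 p53fl/fl units). A unit is named by the tumour number of its library outside set B. The labels give each library as a separate sample without naming animals, so p-values measure the spread between these samples. In 5 p53R245W/fl libraries, which belong to the 3 units 1580, 1831 and 1835, Col1a1 was under 13 log2 CPM, and several results are given without them too.

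The coding sequence around the mutated residues is shown because the 2 missense genotypes are defined by it and because the whole family shares it. Both residues are arginines of the DNA-binding domain. In the 390-codon Trp53 transcript of GENCODE M21 on GRCm38 (chromosome 11, plus strand), the codon changed in R172H lies in exon 5 and that changed in R245W in exon 7. Each line below gives the unmutated reference, 51 coding bases written 5′ to 3′, with the arginine codon in capitals. The 3 lines for the R172H codon come from chr11:69588487-69588537 (Trp53), chr16:25862402-25862452 (Trp63, plus strand, codon 243 of 680) and chr4:154067590-154067640 (Trp73, minus strand, codon 192 of 638).
Trp53 R172H codon: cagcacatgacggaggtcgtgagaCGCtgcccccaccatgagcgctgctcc
Trp63 codon 243: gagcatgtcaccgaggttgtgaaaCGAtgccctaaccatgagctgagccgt
Trp73 codon 192: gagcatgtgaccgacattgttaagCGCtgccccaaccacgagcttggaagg
The 3 lines for the R245W codon come from chr11:69589186-69589236 (Trp53), chr16:25865292-25865342 (Trp63, codon 318) and chr4:154064652-154064702 (Trp73, codon 267).
Trp53 R245W codon: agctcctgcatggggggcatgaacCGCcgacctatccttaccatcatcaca
Trp63 codon 318: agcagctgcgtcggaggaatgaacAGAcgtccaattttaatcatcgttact
Trp73 codon 267: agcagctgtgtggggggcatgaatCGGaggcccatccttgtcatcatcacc

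Around the R172H codon, Trp63 shared 35 of 51 bases with Trp53 (68.6%) and Trp73 shared 32 (62.7%). Around the R245W codon, Trp63 shared 34 (66.7%) and Trp73 shared 39 (76.5%). All 6 codons encode arginine, and exon 5 and exon 7 hold the aligned codons in all 3 genes. Counts per gene carry no allele, so the share of Trp53 RNA from the missense allele was not analysed here.

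Trp53 RNA was higher in both missense genotypes than in p53fl/fl tumours, in every unit. Over units it stood at 22.3 to 55.4 CPM in p53R245W/fl tumours (median 31.9), 26.9 to 48.7 CPM in p53R172H/fl tumours (median 36.3) and 9.80 to 19.5 CPM in p53fl/fl tumours (median 17.2). The lowest p53R245W/fl unit, 1818, was above the highest p53fl/fl unit, 1606, and neither missense group overlapped the p53fl/fl group over libraries or over units. The share of all genes without overlap between these groups was not counted. The log2 fold change over units was 1.19 (SE 0.16, adjusted p = 0.000158) for p53R245W/fl and 1.23 (SE 0.15, adjusted p = 3.83e-05) for p53R172H/fl, each against p53fl/fl, by edgeR's quasi-likelihood test with Benjamini-Hochberg adjustment over 19726 genes. Over the 52 libraries the values were 1.36 (SE 0.13, adjusted p = 8.51e-10) and 1.30 (SE 0.13, adjusted p = 2.11e-09). Of all genes tested over units, 9.04% were called in the p53R245W/fl comparison and 0.259% in the p53R172H/fl comparison. Over libraries these shares were 17.8% and 3.75%. By direction, 4.68% of genes were called higher and 4.35% lower for p53R245W/fl over units, and 10% and 7.82% over libraries. For p53R172H/fl, 0.071% were called higher and 0.188% lower over units, and 1.46% and 2.29% over libraries. In a bulk sample, fewer cells that make an RNA and less of it per cell cannot be told apart.

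The p53fl/fl tumours still held Trp53 reads, between 318 and 1210 counts per library. Their mean was 15.3 ± 3.61 CPM over units (SD, n = 10). The deleted exons are not named in the labels, and counts are per whole gene, so reads from a deleted allele and from cells that kept the gene cannot be told apart.

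The missense genotypes did not differ from each other in mean Trp53 beyond their spread, but the p53R245W/fl units were more widely scattered. Their mean was 34.9 ± 10.2 CPM (SD, n = 11), against 36.1 ± 6.03 CPM in p53R172H/fl units (n = 13), which is a coefficient of variation of 29.3% against 16.7%. This difference in spread was not tested. The log2 fold change was -0.05 over units (SE 0.14, adjusted p = 0.865) and 0.06 over libraries (adjusted p = 0.742). The 3 lowest p53R245W/fl units, 1818, 1817 and 1833, lay below every p53R172H/fl unit, and 1 unit, 1575, lay above all of them with 55.4 CPM. Library sets moved this comparison: p53R245W/fl libraries averaged 45.4 ± 11.2 CPM in set B (n = 6) and 32.7 ± 8.89 CPM in set C (n = 11), against 34.7 ± 4.80 CPM (n = 6) and 37.05 ± 10.01 CPM (n = 5) for p53R172H/fl in those sets. The direction thus turned between sets, with a log2 fold change of -0.20 in set C (adjusted p = 0.647). In set C the column names give lane L003 for every p53R172H/fl and p53fl/fl library. The p53R245W/fl libraries there, other than 1580, carry L004 or L005. Lane and genotype thus cannot be told apart in set C values of p53R245W/fl against the other genotypes.

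Within single sets the rise of Trp53 over p53fl/fl kept its direction and was 1.16 or more. In set B it was 1.69 for p53R245W/fl (adjusted p = 0.00589) and 1.33 for p53R172H/fl (adjusted p = 0.128). Set A, which holds no p53R245W/fl library, gave 1.16 for p53R172H/fl (adjusted p = 0.000954). Set C holds 2 p53fl/fl libraries, and its values of 1.68 and 1.88 did not pass the adjusted threshold (adjusted p = 0.623 and 0.599).

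**Figure D1:**
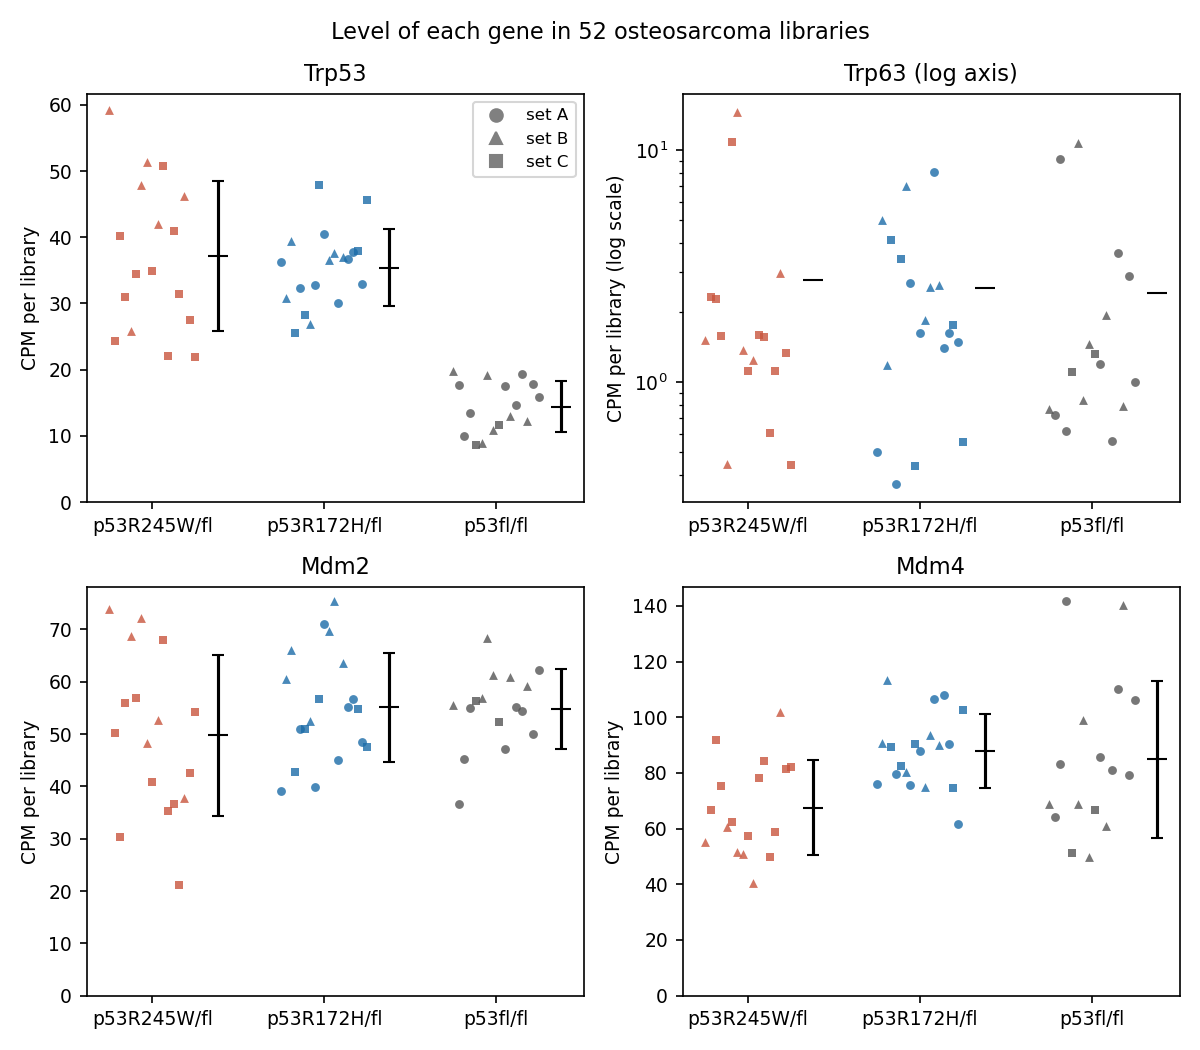
Level of Trp53, Trp63, Mdm2 and Mdm4 in each of 52 libraries (vertical axes: CPM; log scale for Trp63), by genotype, with point shape for library set. The black bar is the mean with its SD (mean only for Trp63). Trp53 separates both missense groups from p53fl/fl, Mdm4 is lowest on average in p53R245W/fl (67.6 CPM), and the highest Trp63 libraries belong to all 3 genotypes.

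Mdm4 was lower in p53R245W/fl tumours than in p53R172H/fl tumours, by a small amount that passed the threshold over libraries and missed it over units. Over libraries it averaged 67.6 ± 16.9 CPM in p53R245W/fl (n = 17), 87.9 ± 13.3 CPM in p53R172H/fl (n = 19) and 84.9 ± 28.1 CPM in p53fl/fl (n = 16). Over units the lowest, median and highest values were 49.6, 69.5 and 94.5 CPM in p53R245W/fl, 61.7, 88.4 and 107 CPM in p53R172H/fl and 51.5, 80.04 and 142 CPM in p53fl/fl. Of the 11 p53R245W/fl units, 10 lay below the p53R172H/fl median and 4 lay below the lowest p53R172H/fl unit, yet the groups overlapped.

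The log2 fold change of Mdm4 for p53R245W/fl against p53R172H/fl was -0.38 over libraries (SE 0.12, adjusted p = 0.0146 by edgeR). Skeletal muscle markers moved with the same contrast: the median summed CPM of these 14 genes was 1195 in p53R245W/fl (52.6 to 8751), 3385 in p53R172H/fl (288 to 44470) and 569.5 in p53fl/fl libraries (96.9 to 7122), with 7 of 14 called lower in p53R245W/fl than in p53R172H/fl over libraries. Of these 14 genes, 0 were called over units, with 5 at an unadjusted p under 0.05 by edgeR. Over units, Mdm4 and the muscle score had r = 0.11 within genotypes (adjusted permutation p = 0.862). For p53R245W/fl against p53R172H/fl over libraries 30.9% of all genes were called, 18.2% higher and 12.7% lower, so a call is common there. Over units the log2 fold change of Mdm4 was -0.32 (SE 0.14, adjusted p = 0.106), where 15.2% of genes were called, 8.8% higher and 6.41% lower. With library set and pair correlation in the model (limma voom) the adjusted p was 0.228. All 15 fits gave a lower value in p53R245W/fl, from -0.31 in the summed units without 1580, 1831 and 1835 to -0.61 within set B, and 9 of the 15 had an adjusted p under 0.05.

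**Figure D2:**
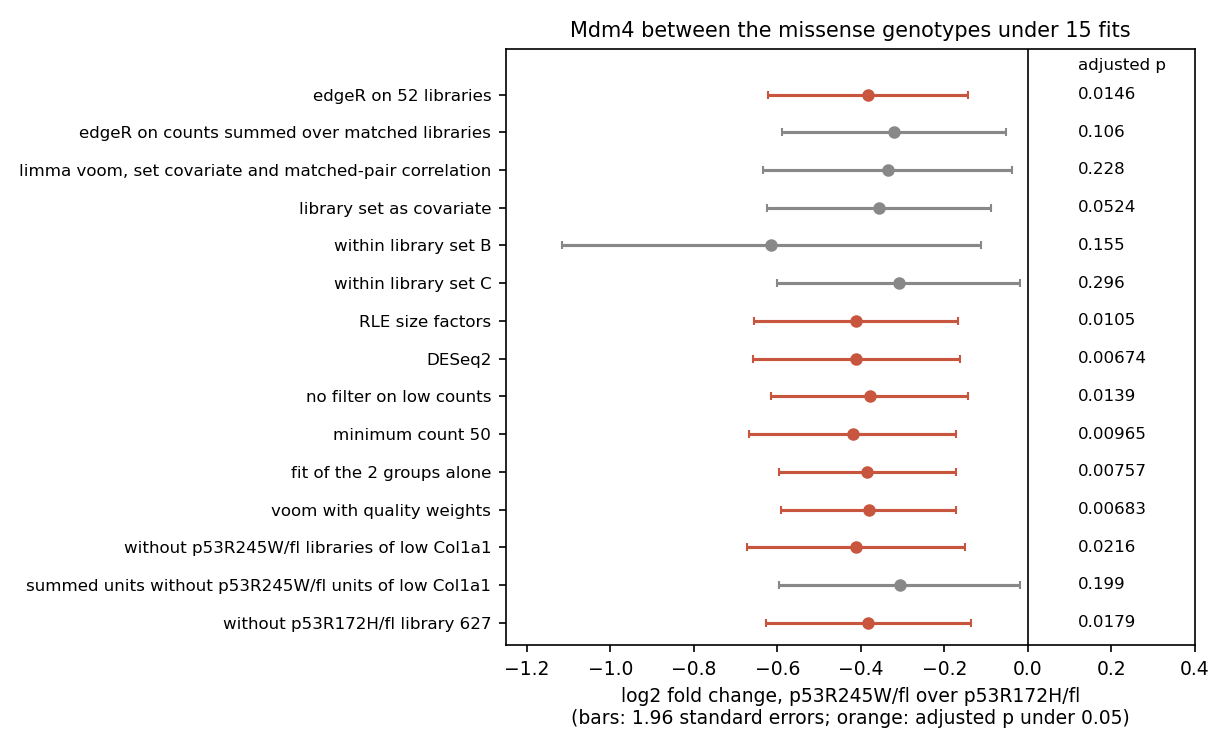
Log2 fold change of Mdm4, p53R245W/fl over p53R172H/fl (horizontal axis), in 15 fits, with bars of 95% intervals and the adjusted p at the right. Orange points have an adjusted p under 0.05. All points lie left of 0, and the fits that allow for matched libraries or sets are grey.

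Against p53fl/fl, Mdm4 passed no adjusted threshold. The log2 fold change was -0.33 for p53R245W/fl over libraries (SE 0.13, adjusted p = 0.0642) and -0.30 over units (adjusted p = 0.195), and 0.05 for p53R172H/fl over libraries (adjusted p = 0.862) with a 95% interval of -0.19 to 0.30, and 0.02 over units (adjusted p = 0.978). The p53fl/fl group was the most variable, with a coefficient of variation of 30.9% over units. Its highest unit, 562, had 142 CPM, with 142 and 140 CPM in its 2 matched libraries, and its lowest unit, 4183, had 51.5 CPM.

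Mdm2 did not differ detectably between genotypes. It averaged 47.9 ± 15.02 CPM in p53R245W/fl units, 54.0 ± 9.80 CPM in p53R172H/fl units and 53.8 ± 7.93 CPM in p53fl/fl units (SD, n = 11, 13 and 10). The log2 fold changes over libraries were -0.15 for p53R245W/fl against p53R172H/fl (adjusted p = 0.324), -0.14 for p53R245W/fl against p53fl/fl (adjusted p = 0.456) and 0.01 for p53R172H/fl against p53fl/fl (adjusted p = 0.968). The 95% intervals ran from -0.38 to 0.07, from -0.37 to 0.10 and from -0.22 to 0.24. Over units the values were -0.17, -0.17 and 0.0048 in the same order (adjusted p = 0.426, 0.534 and 0.994).

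The low end of Mdm2 belonged to p53R245W/fl tumours. The units 1580, 1835 and 1818, at 21.4, 32.9 and 35.6 CPM, lay below every unit of the other genotypes, of which the lowest was p53fl/fl 1522 at 37.5 CPM. The 5 p53R245W/fl libraries of low Col1a1 averaged 34.8 ± 10.1 CPM and the other 12 averaged 55.9 ± 12.7 CPM. Without the 5, the log2 fold change of Mdm2 was 0.01 against p53R172H/fl and 0.03 against p53fl/fl. Units 1580 and 1835 carry low Col1a1 and 1818 does not.

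Trp63 was the least abundant of the 4 genes and varied the most between tumours. Its libraries held 16 to 744 counts. Over units it ranged from 0.448 to 12.8 CPM in p53R245W/fl (median 1.57), from 0.367 to 8.08 CPM in p53R172H/fl (median 1.82) and from 0.657 to 10.002 CPM in p53fl/fl (median 1.26). Each genotype had 1 unit far above its median: 941 in p53R245W/fl, 1383 in p53R172H/fl and 1640 in p53fl/fl. The ranges of the genotypes overlapped.

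The log2 fold changes of Trp63 over libraries were 0.19 for p53R245W/fl against p53fl/fl (SE 0.48, adjusted p = 0.827), 0.07 for p53R172H/fl against p53fl/fl (SE 0.46, adjusted p = 0.959) and 0.12 for p53R245W/fl against p53R172H/fl (SE 0.46, adjusted p = 0.866). Over units they were 0.07, 0.04 and 0.03 in the same order (adjusted p = 0.96, 0.989 and 0.976). The 95% intervals over libraries are wide, from -0.75 to 1.12, from -0.84 to 0.98 and from -0.77 to 1.01 in the same order. A rise by a factor of 2 thus lies within the first and the third. The SD of Trp63 within genotypes was 1.27 log2 units, larger than that of 67.4% of 1247 genes of like level. For Trp53, Mdm2 and Mdm4 it was 0.34, 0.35 and 0.32, each below the median of genes of like level.

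The 3 high Trp63 tumours were not those with the most RNA of stratified epithelium. The 20 keratinocyte and epithelial markers summed to 26.8 CPM in unit 941, 31.4 CPM in 1383 and 17.4 CPM in 1640, against a median of 16.8 and a highest value of 1560 CPM over the 34 units. Krt5, a keratin of the basal layer, was at 5.91 CPM in unit 941, the highest of all units, 0 in 1383 and 0.072 in 1640. Krt14, its usual partner, was at 0 in 941, 0.115 in 1383 and 2.68 CPM in 1640. The summed skeletal muscle markers were highest of all units in 1383, at 44550 CPM, and ranked 22 and 31 of 34 in 941 and 1640. Over the 34 units, neither marker score passed a test of correlation with Trp63 (r = 0.22 for muscle, adjusted permutation p = 0.69, and r = 0.09 for epithelium, adjusted permutation p = 0.862, over 28 relations). Within p53R172H/fl units, which include 1383, r was 0.70 and rho 0.53 for muscle (n = 13). The value of r was -0.035 in p53R245W/fl units (n = 11) and -0.139 in p53fl/fl units (n = 10). These values within single genotypes were not tested.

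Per unit of exon length, Trp63 was the lowest of the 4 genes in all 34 units. Its level per kilobase was 0.0091 to 0.1496 times that of Trp53 in p53R245W/fl units, 0.0044 to 0.129 times in p53R172H/fl units and 0.0185 to 0.492 times in p53fl/fl units. Trp53 stood below Mdm2 per kilobase in all 10 p53fl/fl units, by the length of all annotated exons and by that of the transcript with the longest coding sequence. In the missense genotypes that order depended on the length used: Trp53 was above Mdm2 in 4 of 11 p53R245W/fl and 4 of 13 p53R172H/fl units with all exons, and in 8 and 10 with the single transcript. The place of Mdm4 also turned with the length, since its annotated exons add up to 14798 bases and its longest coding transcript to 1914.

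Matched libraries differed less than unmatched ones in Trp63, Trp53 and Mdm4. The median absolute log2 difference within the 18 pairs was 0.406 for Trp63, against 1.25 between unmatched libraries of 1 genotype in 1 set, and all 18 pairs lay below that median. The corresponding values were 0.205 and 0.306 for Trp53 and 0.147 and 0.321 for Mdm4. The matched libraries with the most Trp63 had 14.6 and 10.9 CPM, and the highest p53fl/fl pair had 10.8 and 9.22 CPM.

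Mdm2 was the exception, with 0.307 within pairs and 0.284 between unmatched libraries. It was higher in the set B library in 18 of 18 pairs, by a median of 0.31 log2 units. Among 18882 genes, 4.97% were higher in set B in every pair. Trp63 was higher in set B in 16 of 18 pairs, Trp53 in 13 and Mdm4 in 5. Set and group cannot be fully told apart here, because the genotypes are spread unequally over the sets.

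**Figure D3:**
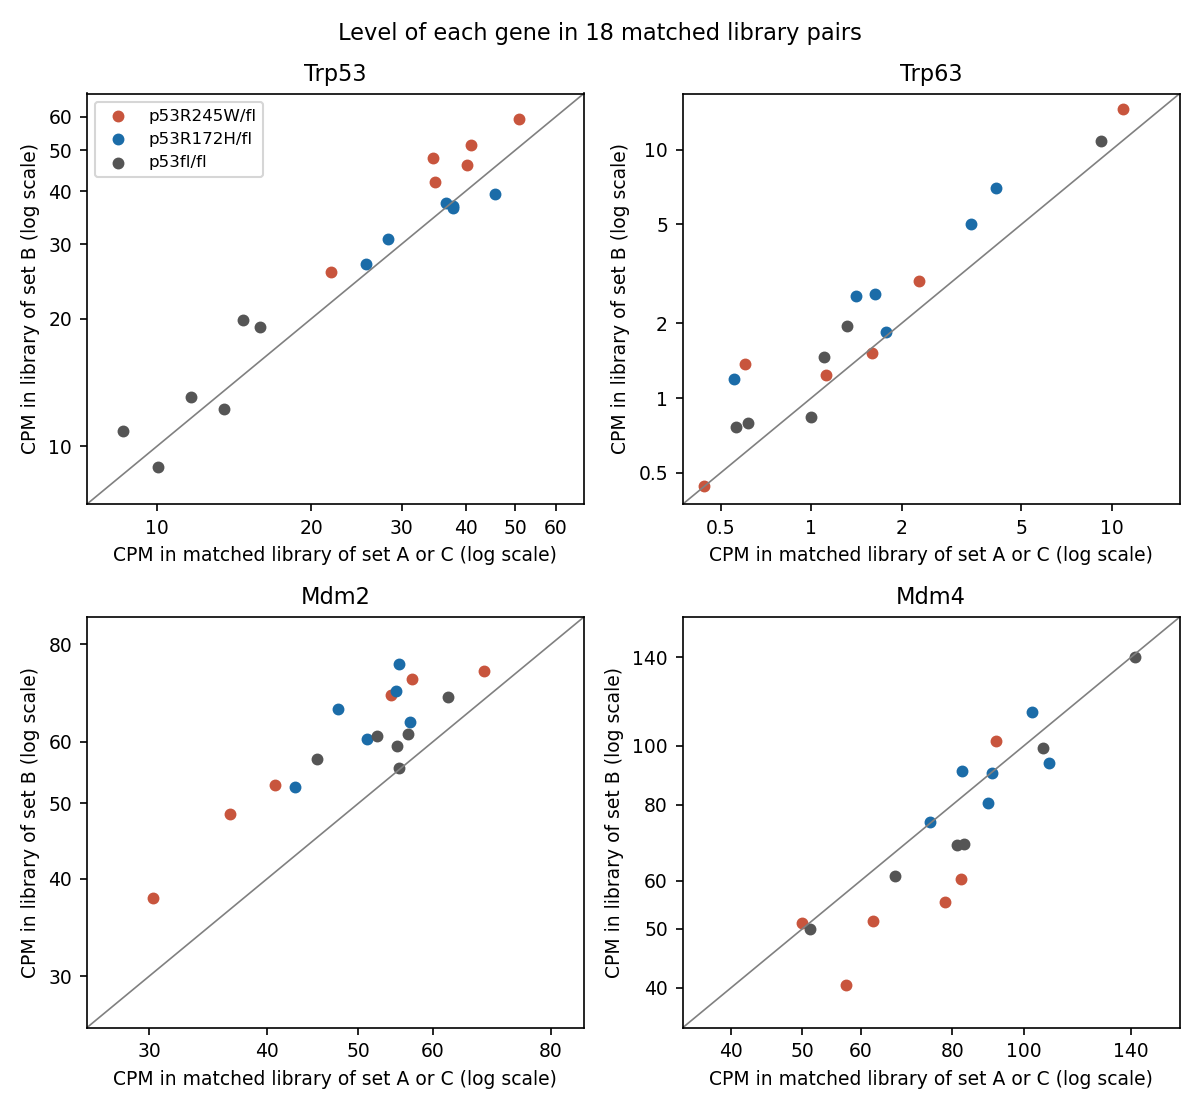
CPM of each gene in the 18 set B libraries (vertical axis, log scale) and in the matched library of set A or C (horizontal axis, log scale), coloured by genotype, with the line of equality. Trp63 keeps its order over a wide range, and all 18 Mdm2 points lie above the line.

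No correlation between the members passed adjustment. After subtraction of genotype means, the 6 pairwise correlations over 34 units had Pearson's r between -0.18 (Trp53 and Trp63) and 0.14 (Trp53 and Mdm2) and Spearman's rho between -0.17 and 0.12. No permutation p within genotypes, with 100000 resamples and adjustment over the 6 relations, was under 0.85. Within single genotypes and sets some values were larger, and none had an adjusted permutation p under 0.05. In p53R172H/fl, Trp53 and Trp63 had r = -0.64 (adjusted p = 0.104), and Trp53 and Mdm2 had rho = 0.58 (adjusted p = 0.183). In set A, Mdm2 and Mdm4 had r = 0.51 (adjusted p = 0.263). Trp53 and Mdm4 had r of -0.42 in p53R245W/fl and 0.35 in p53fl/fl. None of the 28 relations of the 4 genes with 7 marker scores (epithelium, multiciliated cells, osteoblasts, mitosis, T and NK cells, macrophages, muscle) passed adjustment over the 28. The lowest unadjusted permutation p was 0.0145, for Mdm2 and osteoblast markers by rank (rho = 0.45, adjusted p = 0.407). For Pearson's r it was 0.0349, for Mdm4 and macrophage markers (r = -0.40, adjusted p = 0.546).

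Trp53 was lower in units with a higher mean level of p53 target genes, and Mdm4 showed a weaker relation of that sign that did not hold by rank without 2 units. The score was the mean log2 deviation of 35 target genes, with no member of the family among them, and the relation was chosen after the values of the members were seen. Trp53 gave r = -0.50 and rho = -0.59 over 34 units, after subtraction of genotype means (permutation p within genotypes 0.00659 and 0.0005, adjusted over 4 relations 0.0264 and 0.002). Without the 2 units farthest from the median score r was -0.53. Mdm4 gave r = -0.44 and rho = -0.40 (adjusted permutation p = 0.0323 and 0.0497), and r = -0.46 and rho = -0.36 without those 2 units (adjusted permutation p = 0.0288 and 0.105). Trp63 (rho = 0.18) and Mdm2 (rho = -0.11) showed no such relation, with adjusted permutation p = 0.437 and 0.542 for rho.

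The sign for Trp53 was negative in every genotype and every set, with fewer samples each. Spearman's rho was -0.46 in p53R245W/fl (n = 11), -0.71 in p53R172H/fl (n = 13) and -0.46 in p53fl/fl (n = 10), and -0.49, -0.64 and -0.56 in sets A, B and C. The adjusted permutation p was under 0.05 in p53R172H/fl (0.0346) and in set B (0.0365) and not in the others. For Mdm4, rho was -0.20, -0.40 and -0.55 in the 3 genotypes in the same order, and no adjusted p was under 0.05.

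**Figure D4:**
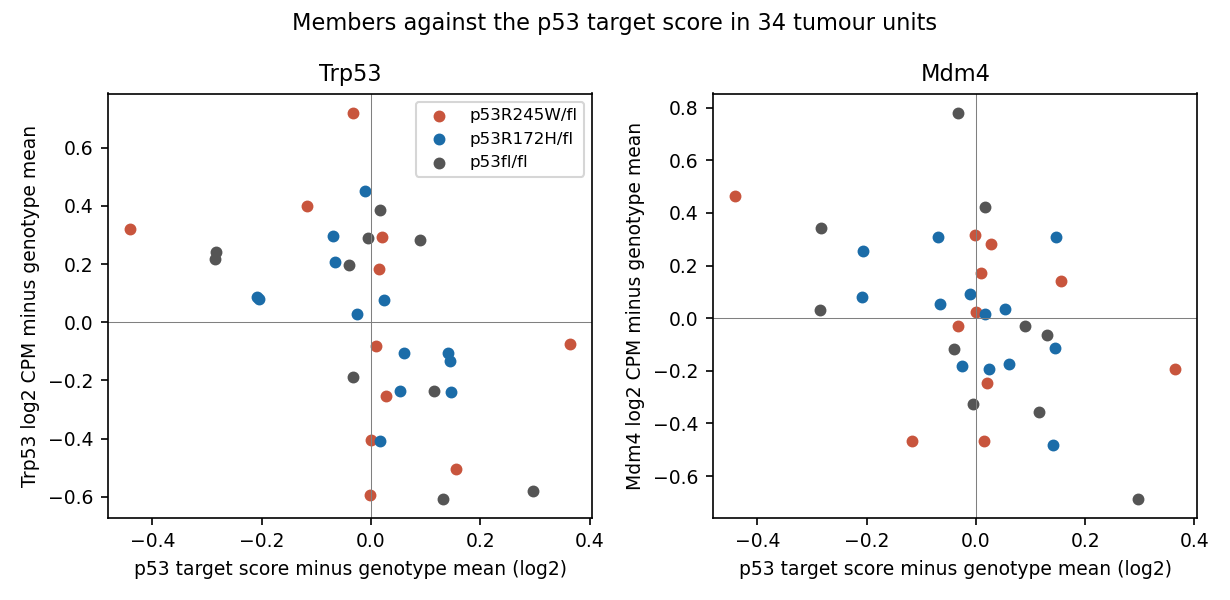
Trp53 (left) and Mdm4 (right) log2 CPM minus the genotype mean (vertical axes) against the p53 target score minus its genotype mean (horizontal axes, log2 units), 1 point per tumour unit. Both clouds slope downward, with rho of -0.59 for Trp53 and -0.40 for Mdm4 (-0.36 for Mdm4 without the 2 units farthest from the median score).

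The target genes called by edgeR between genotypes over all libraries or units were all higher in p53R245W/fl. An excess over the share of all genes was not tested. In p53R245W/fl against p53fl/fl, 7 of 35 were higher and 0 lower over libraries, and 4 and 0 over units. Of all genes, 17.8% were called over libraries (10% higher, 7.82% lower) and 9.04% over units (4.68% higher, 4.35% lower). The median log2 fold change of the list over libraries was 0.14, and that of all genes was 0.04. In p53R245W/fl against p53R172H/fl, 8 were higher and 0 lower over libraries, and 4 and 0 over units. Of all genes, 30.9% were called over libraries (18.2% higher, 12.7% lower) and 15.2% over units (8.8% higher, 6.41% lower). The list median over libraries was 0.26, and that of all genes was 0.07. With set and pair correlation in the model (limma voom) 0 of 35 were called in either comparison, with 5 and 4 at an unadjusted p under 0.05. That model called 0.0159% and 1.55% of all genes, so a count of 0 does not set the list apart. In p53R172H/fl against p53fl/fl, 0 of 35 were called by edgeR over libraries or over units, where 4 and 2 had an unadjusted p under 0.05. DESeq2 called 1 higher over libraries, and limma voom with set and pair correlation called 0, with 3 at an unadjusted p under 0.05. Of all genes, DESeq2 called 6.34% and limma voom 0.0106% in this comparison. Without the p53R245W/fl libraries of low Col1a1, the count against p53fl/fl was 2 higher and 1 lower, and that against p53R172H/fl was 5 higher and 1 lower. Without those libraries, 11.8% of all genes (4.9% higher) and 22.5% (10.8% higher) were called in these comparisons.

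Perp, a target gene that is also a desmosome component and stands among the epithelial markers, had a log2 fold change of 4.93 against p53fl/fl by edgeR over libraries (adjusted p = 0.000407) and 5.57 over units (adjusted p = 0.0041), but 0.86 by DESeq2 over libraries (adjusted p = 0.146). Its median was 1.13 CPM in p53R245W/fl libraries and 0.544 CPM in p53fl/fl libraries, and 1 p53R245W/fl library reached 242 CPM. Without the libraries of low Col1a1 its log2 fold change was 1.23 (adjusted p = 0.118). Btg2, an antiproliferative target, had a median of 23.7 CPM in p53R245W/fl, against 13.98 CPM in p53fl/fl (log2 fold change 0.99, adjusted p = 0.00042), and 0.51 (adjusted p = 0.0225) without those libraries. Plk2, a kinase, had a median of 43.4 CPM in p53R245W/fl, against 23.98 CPM in p53fl/fl (log2 fold change 1.13, adjusted p = 0.000715), and 0.53 (adjusted p = 0.0673) without them. Over units the adjusted p was 0.0047 for Btg2 and 0.0269 for Plk2. With set and pair correlation in the model none of these 3 was called, with 2.19 (adjusted p = 0.477) for Perp, 0.67 (adjusted p = 0.237) for Btg2 and 0.90 (adjusted p = 0.181) for Plk2. That model called 0.0159% of all genes against p53fl/fl. The 20 epithelial markers summed to 6.26 to 2203 CPM in p53R245W/fl libraries, 8.32 to 75.4 CPM in p53R172H/fl libraries and 10.2 to 84.0 CPM in p53fl/fl libraries. Their part in these calls was not tested. Against p53R172H/fl, the death receptor genes Tnfrsf10b (0.87, adjusted p = 0.000758 over libraries and 0.0155 over units) and Fas (0.71, adjusted p = 0.0488 and 0.202) and the tetraspanin gene Cd82 (0.95, adjusted p = 0.00699 and 0.0378) were higher in p53R245W/fl over libraries, given as log2 fold changes. Cd82 varied widely, at 58.9 ± 64.5 CPM in p53R245W/fl and 30.4 ± 13.5 CPM in p53R172H/fl libraries. For Tnfrsf10b, Fas and Cd82, values without the libraries of low Col1a1 or with set and pair correlation are not given here.

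Among 39 measured enzymes and partners that modify p53 or Mdm proteins, calls were no more common than among all genes in p53R245W/fl against p53R172H/fl. Over libraries 4 were higher and 5 lower, where 30.9% of all genes were called, and over units 2 and 3, where 15.2% were called, with a list median over libraries of 0.08 beside 0.07 for all genes. With set and pair correlation in the model (limma voom) 0 of 39 were called, with 8 at an unadjusted p under 0.05. That model called 1.55% of all genes. Pml, which recruits p53 to nuclear bodies, had 27.1 ± 10.9 CPM in p53R245W/fl and 41.6 ± 10.2 CPM in p53R172H/fl, a log2 fold change of -0.62 (SE 0.15, adjusted p = 0.00126 over libraries and 0.0188 over units). Hipk2, a kinase that phosphorylates p53 after damage, had 66.3 ± 55.7 CPM in p53R245W/fl and 116 ± 52.5 CPM in p53R172H/fl (log2 fold change -0.81, SE 0.25, adjusted p = 0.0107 over libraries and 0.0211 over units). Both were also lower without the p53R245W/fl libraries of low Col1a1, with -0.55 (adjusted p = 0.00365) for Pml and -0.95 (adjusted p = 0.00257) for Hipk2. With set and pair correlation in the model the adjusted p was 0.0613 for Pml and 0.0793 for Hipk2. The muscle markers described beside Mdm4 moved with this contrast too, and were higher in p53R172H/fl than in p53fl/fl over libraries (10 of 14 called, median log2 fold change 2.12). Of all genes, 3.75% were called in that comparison, 1.46% higher. Over units 0 of 14 were called, where 0.259% of all genes were. All 14 had an unadjusted p under 0.05 there by edgeR, with a median log2 fold change of 2.20. The part of the muscle markers in the values of Pml and Hipk2 was not tested.

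Against p53fl/fl, 4 of the 39 were higher and 1 lower in p53R245W/fl over libraries, and 1 higher and 1 lower in p53R172H/fl, where 17.8% and 3.75% of all genes were called. Over units edgeR called 0 of 39 in either comparison, with 6 and 4 at an unadjusted p under 0.05, where 9.04% and 0.259% of all genes were called. DESeq2 over libraries called 4 higher and 1 lower in p53R245W/fl, and 2 higher and 1 lower in p53R172H/fl, and limma voom with set and pair correlation called 0 in both. Of all genes, DESeq2 called 20% and 6.34%, and limma voom 0.0159% and 0.0106%. Those called by edgeR in p53R172H/fl were Pml (log2 fold change 0.51, adjusted p = 0.0403) and Cop1, a ubiquitin ligase for p53 (-0.32, adjusted p = 0.0329). Ppp1r13l, which encodes the p53 inhibitor iASPP, was the member that was lower in p53R245W/fl (log2 fold change -0.81, adjusted p = 0.0188), at 3.29 ± 1.74 CPM against 5.78 ± 3.13 CPM in p53fl/fl. Wrap53, which adjoins Trp53, was higher (0.57, adjusted p = 0.0269), as was Rpl5, a ribosomal protein that binds Mdm2 (0.39, adjusted p = 0.0279). Cdkn2a, whose Arf product blocks Mdm2, was named after its values were seen. It ranged from 23.8 to 340 CPM in p53R245W/fl, from 1.21 to 159 CPM in p53R172H/fl and from 2.40 to 141 CPM in p53fl/fl libraries, and passed no threshold (smallest adjusted p = 0.086). Of 12 partners of p63 and p73, 2 were higher and 1 lower in p53R245W/fl against p53fl/fl, 3 higher and 2 lower against p53R172H/fl over libraries, where 17.8% and 30.9% of all genes were called, and 0 of 12 were called by edgeR over units in any comparison. At an unadjusted p under 0.05 over units there were 4 and 5 in those comparisons, and 0 in p53R172H/fl against p53fl/fl. DESeq2 over libraries called 2 higher and 2 lower, 3 higher and 2 lower, and 0 in these 3 comparisons in turn, while limma voom with set and pair correlation called 1 lower in p53R245W/fl against p53R172H/fl and 0 in the other comparisons. In the same order, DESeq2 called 20%, 33% and 6.34% of all genes, and limma voom 0.0159%, 1.55% and 0.0106%. Hdac1, a histone deacetylase, was higher in p53R245W/fl in both comparisons (0.51 against p53fl/fl, adjusted p = 0.0108, and 0.53 against p53R172H/fl, adjusted p = 0.00268, over libraries).

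The genes whose level followed Mdm2 most closely lay on its own chromosome. After subtraction of genotype means, the 5 genes with the highest Spearman correlation over 34 units, among 13303 others, were Xpot (0.78), Rbms2 (0.76), Eea1 (0.75), Tmtc3 (0.75) and Helb (0.74). All 5 are on chromosome 10, as is Mdm2 (GRCm38, 117688875 to 117710758, minus strand). Of the 100 most alike genes, 68 were on chromosome 10, which holds 638 of the 13303 genes compared. The median rho was 0.23 over the genes of chromosome 10 and 0.01 over genes of other chromosomes. These correlations share libraries and depth and are given as a description.

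Over the 34 units the likeness was seen in windows along the chromosome. In windows of 10 Mb that held 20 genes or more, the median rho was 0.40 and 0.34 on the 2 sides of Mdm2, 0.47 at 10 to 20 Mb on the side of higher coordinates, and between 0.12 and 0.38 elsewhere. Mdm2 correlated with the mean of 595 genes of chromosome 10 that lie more than 5 Mb away (rho = 0.61). Without units 1580, 1831 and 1835, 55 of the 100 most alike genes were on chromosome 10, and the median rho over that chromosome was 0.15. Within p53R245W/fl, p53R172H/fl and p53fl/fl tumours the number was 54, 31 and 17, with a median rho of 0.41, 0.12 and 0.22. Within sets A, B and C it was 38, 32 and 45, with a median rho of 0.07, 0.21 and 0.30. DNA copy number was not analysed here.

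**Figure D5:**
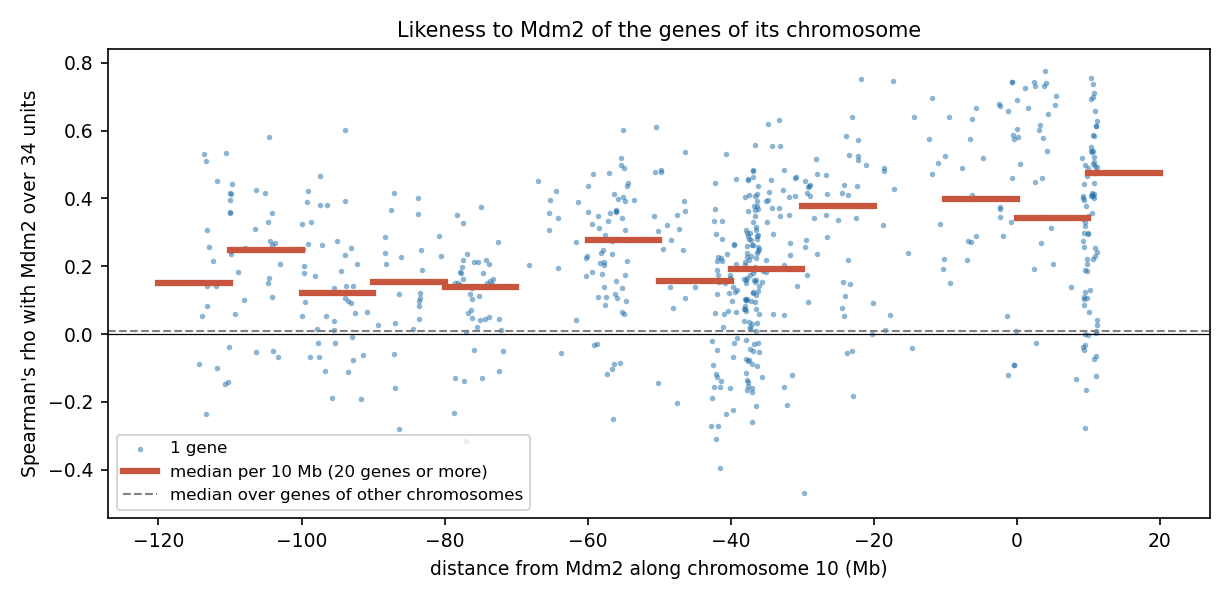
Spearman's rho with Mdm2 over 34 units (vertical axis) for each gene of chromosome 10, by distance from Mdm2 in Mb (horizontal axis). Orange bars are medians of 10 Mb windows with 20 genes or more, and the dashed line is the median of genes on other chromosomes, 0.01. Every window median lies above that line, and the window just beyond 10 Mb on the right is highest, at 0.47.

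For the other members fewer of the most alike genes lay on the member's own chromosome, though for Mdm4 they exceeded that chromosome's share of genes. Trp53 was closest to Rps6ka6 (rho 0.72), Zfp444 (0.71), Zfp711 (0.67), Bdp1 (0.66) and Heatr1 (0.64). Mdm4 was closest to Prpf39 (0.66), Fnbp4 (0.66), Vipr2 (0.66), Atg16l1 (0.65) and Clk4 (0.65), of which Prpf39 and Clk4 act in pre-mRNA splicing. Trp63 had its highest values with Dcaf17 (0.59), Maob (0.58), Ms4a4d (0.57), Fam69c (0.57) and Mark1 (0.57). Among the 100 genes most like each, 7 shared the chromosome of Trp53, 16 that of Mdm4 and 3 that of Trp63, beside 8.40%, 5.96% and 3.12% of all genes compared. Among the 10 most like each, the numbers were 1, 4 and 0 in the same order, and 10 for Mdm2.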

How the data were processed

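The deposited values are read counts per Ensembl gene for 52 libraries, whole numbers with unequal totals and thus not normalized. Per the submitters' processing notes, STAR and the build GRCm38 were used; no source used here gives versions, the counting program or its strand setting. Genes in the table have a total of at least 260 counts over the 52 libraries. Identifiers were joined to GENCODE M21 (20668 with a symbol). filterByExpr (minimum count 10) left 18882 genes over libraries and 19726 over units, which were tested in edgeR 4.0.16 (R 4.3.3) with TMM library sizes, 1 coefficient per genotype, robust quasi-likelihood F tests and Benjamini-Hochberg adjustment over all genes, with a threshold of 0.05. Intervals are at 95%, from the standard error. Log2 CPM used a prior count of 2. The fits were tested on simulated counts. Levels per kilobase divide CPM by the length of all annotated exons. limma 3.58.1 and DESeq2 1.42.0 served as alternatives. Named genes are the members, up to 4 called members of each list by fold change with a mean of at least 1 CPM (most from marker lists are left out for length), the 5 genes most like each member and the adjoining genes. The members and lists were chosen with earlier results of these data known. The relation with the p53 target score, the fits without units of low Col1a1, the alternatives of the chromosome 10 count, the per-transcript lengths and Cdkn2a were added after seeing the data. A gene that this rule names is not reported here.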

Additional observations from a re-analysis of the deposited data

Results flagged for a closer look

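In 28 groups of 4 to 10 samples, 6 single values stood apart from the rest of their group by Dixon's criterion, and 5 of the 6 concern Trp63. For independent normal values chance gives about 1 in 20 groups. That rate cannot be compared with these values, because Trp63 CPM is skewed and unit 1640 and its 2 libraries are flagged separately. Unit 1640 had 10.002 CPM, the highest of p53fl/fl, against 3.65 CPM in the next. By library it had 9.22 CPM in set A, against 3.62 CPM in the next, and its matched library had 10.8 CPM in set B, against 1.94 CPM. In p53R245W/fl, library 555 of set B had 14.6 CPM, against 2.97 CPM. In p53R172H/fl, library 1383 of set A had 8.07 CPM, against 2.69 CPM. The remaining value is Mdm4 in p53R245W/fl library 408 of set B, with 102 CPM, against 60.5 CPM in the next, and 91.8 CPM in its matched library 1835.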

How the results depend on the processing

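Over 12 member fold changes and their alternatives, other than leaving out units, 147 values kept direction and side of the threshold, 9 lost the threshold and 16 turned sign; the cause was not tested. No paired analysis was possible because no tumour number is shared between genotypes. Trp53 against p53fl/fl missed the threshold within set C for p53R245W/fl (1.68), and within sets B (1.33) and C (1.88) for p53R172H/fl, where fewer samples entered. Mdm4 for p53R245W/fl against p53R172H/fl missed it over units (-0.32), with set and pair correlation (-0.34), with set as a covariate (-0.36), within sets B (-0.61) and C (-0.31) and over units without low Col1a1 (-0.31).

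The sign changes concern values that passed no threshold. Trp53 for p53R245W/fl against p53R172H/fl was -0.0457 over units, -0.0038 with set and pair correlation, -0.195 within set C, -0.0241 with voom quality weights, -0.027 without libraries and -0.12 without units of low Col1a1. Mdm2 was 0.0095 without those libraries in that comparison, and 0.0283 and 0.0219 without those libraries and units against p53fl/fl. Mdm2 for p53R172H/fl against p53fl/fl was -0.093 within set C and -0.0113 both with quality weights and without library 627. Mdm4 was 0.28 within set C for p53R245W/fl and -0.12 within set A for p53R172H/fl, each against p53fl/fl. Trp63 was -0.15 within set A for p53R172H/fl against p53fl/fl, and -0.10 with quality weights for p53R245W/fl against p53R172H/fl. With the target score, rho turned for Trp63 within p53R245W/fl (-0.355) and set C (-0.075), and for Mdm2 within p53R245W/fl (0.091), p53fl/fl (0.115) and sets B (0.174) and C (0.015).

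Leaving out each unit in turn, Trp53 against p53fl/fl ranged from 1.12 to 1.25 for p53R245W/fl and from 1.18 to 1.28 for p53R172H/fl. For p53R245W/fl against p53R172H/fl the ranges were -0.14 to -0.0004 for Trp53, -0.72 to 0.34 for Trp63, -0.25 to -0.10 for Mdm2 and -0.37 to -0.28 for Mdm4. For p53R245W/fl against p53fl/fl they were -0.66 to 0.71 for Trp63, -0.23 to -0.07 for Mdm2 and -0.35 to -0.17 for Mdm4, and for p53R172H/fl against p53fl/fl -0.27 to 0.67, -0.0436 to 0.0588 and -0.0264 to 0.15 in that order. The lowest and highest Trp63 values came without units 941, 1383 or 1640.

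Counts of called genes moved more. For p53R172H/fl against p53fl/fl 708 genes were called over libraries, 51 over units and 2 with set and pair correlation (limma). For p53R245W/fl the numbers were 3365, 1783 and 3 against p53fl/fl, and 5829, 3000 and 293 against p53R172H/fl. Trp63, with 16 to 744 counts per library, is the member that depth limits most.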

Other observations

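Of the tested genes next to the members, 1 followed its member closely. Wrap53 starts 103 bases from Trp53 and had a rho of 0.06 with it over 34 units. Atp1b2, 7862 bases away on the other side, was higher in p53R172H/fl than in p53fl/fl (log2 fold change 2.54, SE 0.38, adjusted p = 5.73e-05 over libraries and 0.0175 over units by edgeR) and had a rho of -0.11 with Trp53. For p53R245W/fl its edgeR log2 fold change was 1.03 against p53fl/fl (adjusted p = 0.0419 over libraries and 0.125 over units). Against p53R172H/fl it was -1.50 (adjusted p = 0.00126 and 0.033). Slc35e3, 22920 bases from Mdm2, followed it with a rho of 0.60, while Cpm, 1522 bases away on the other side and at a mean of 1.34 CPM, did not (0.01). Pik3c2b next to Mdm4 had a rho of 0.26, and Lpp and P3h2 on either side of Trp63 had 0.17 and 0.25. Counts of antisense neighbours cannot be told apart from those of a member unless counting used strand, which the sources used here do not give.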
